A study of Mus musculus with 9 samples.

Results

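The transcripts of 8 genes were followed in injured mouse muscle: Nrep, which encodes P311, the TGF-beta ligand genes Tgfb1, Tgfb2 and Tgfb3, the receptor genes Tgfbr1, Tgfbr2 and Tgfbr3, and Eif3b, a partner of P311 in translation. They were taken by symbol from 54532 genes in the table, 1 row each, and all 8 passed the filter on low values that left 14233 genes for testing. RNA came from tibialis anterior, a hind limb muscle, after injury. The groups held 3 libraries each: wild type aged 4 to 6 months (young wild type), wild type aged 24 months (old wild type) and old animals that lacked P311 (old P311-/-), whose age in months was not given separately. The labels used here leave out the kind of injury, the time after it, the strain and the part of Nrep that was deleted. They do not say whether a library is 1 animal or a pool, so a p-value here reflects only how far these libraries varied.

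TGF-beta is a secreted signal that restrains myoblast differentiation and drives matrix production by fibroblasts during muscle repair. Each ligand is made in a latent form, is released in the matrix, and binds the type II receptor, encoded by Tgfbr2, which then activates the type I receptor, encoded by Tgfbr1, and through it the SMAD proteins. Tgfbr3 encodes betaglycan, a coreceptor that presents ligand, above all the product of Tgfb2. P311 is a small intracellular protein that has been described to bind the product of Eif3b, a subunit of translation initiation factor eIF3, and to promote translation of the ligand transcripts. The libraries measured transcript levels, and translation was not measured in them.

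Values are FPKM, reads divided by gene length and by the authors' scaled library size. Reads recovered from them numbered 14222204 to 18249081 for young wild type, 17730208 to 23133027 for old wild type and 20475248 to 31910890 for P311-/-. Muscle identity was plain from the creatine kinase gene Ckm, at 2370 to 3790 FPKM over all libraries, and the actin gene Acta1, at 16500 to 23420 FPKM. One library stood apart from its group. Old P311-/- replicate 1 lay at a Euclidean distance, over log2 values of the tested genes, of 59.6 to 70.0 from the old wild-type libraries and of 81.9 to 86.0 from P311-/- replicates 2 and 3. P311-/- replicates 2 and 3 lay at 78.6 to 99.0 from the wild-type libraries. Tests of the 8 genes that rest on the P311-/- group are therefore also given without replicate 1. That library was picked from these same data and lay nearest to old wild type in its group. Fits without it therefore favour a larger difference from old wild type and are no separate support. Mitochondrial genes took 8.79% to 10.7% of young wild-type reads, 13.2% to 17.6% of old wild-type reads and 9.47% to 14.1% of P311-/- reads.

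The start regions of 3 genes are shown because their transcripts are the ones that, among the ligands and receptors, had the smallest p against old wild type (Tgfb2) and between old and young wild type (Tgfbr2), or the ligand with the largest p against old wild type (Tgfb1). Each run gives the 250 bases before the RefSeq transcript start on the gene's own strand, on GRCm38.p6. Tgfb1 is taken from the plus strand at chr7:25686752-25687001, Tgfb2 from the minus strand at chr1:186705990-186706239 and Tgfbr2 from the minus strand at chr9:116175364-116175613. Capitals mark matches on either strand to the GC box GGGCGG, which Sp1 family factors bind, the SMAD-binding core CAGAC and the TATA box TATAAA, and no match overlapped another.
Tgfb1: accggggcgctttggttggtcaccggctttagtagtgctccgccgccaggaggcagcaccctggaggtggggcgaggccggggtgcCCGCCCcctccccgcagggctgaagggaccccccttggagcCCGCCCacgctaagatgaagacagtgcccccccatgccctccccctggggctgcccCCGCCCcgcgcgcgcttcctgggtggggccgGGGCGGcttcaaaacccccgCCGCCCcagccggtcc
Tgfb2: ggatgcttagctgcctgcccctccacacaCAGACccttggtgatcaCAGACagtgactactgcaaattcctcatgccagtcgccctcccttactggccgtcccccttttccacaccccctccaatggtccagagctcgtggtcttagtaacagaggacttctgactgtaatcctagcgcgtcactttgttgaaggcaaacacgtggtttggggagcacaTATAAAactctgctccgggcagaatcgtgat
Tgfbr2: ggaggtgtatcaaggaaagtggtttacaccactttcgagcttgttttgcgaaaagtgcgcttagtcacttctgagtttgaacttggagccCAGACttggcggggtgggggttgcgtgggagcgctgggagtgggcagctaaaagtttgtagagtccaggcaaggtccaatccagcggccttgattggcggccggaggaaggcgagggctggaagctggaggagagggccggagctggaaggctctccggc
Tgfb1 had 5 GC boxes and no match to the other motifs in this window. Tgfb2 had 2 SMAD cores, 221 and 204 bases before the start, and a TATA box that began 31 bases before it. Tgfbr2 had 1 SMAD core, 160 bases before the start. Among 32851 start regions of this length, 32.7% held a GC box, 42.2% a SMAD core and 12.4% a TATA box, so each of these matches is common, and a match is a description of the letters only. RefSeq start regions were matched for 5 of the 8 genes.

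Nrep (ENSMUSG00000042834, chromosome 18, 33437019 to 33464029, minus strand, GRCm38) was the only one of the 8 genes that passed the test in any comparison over all 9 libraries. It stood at 86.3, 72.6 and 63.9 FPKM in young wild-type replicates 1, 2 and 3. The old wild-type replicates held 72.4, 71.4 and 83.1 FPKM. The old P311-/- replicates held 14.8, 6.37 and 9.72 FPKM. All 3 P311-/- values were thus below all 6 wild-type values, while young and old wild type overlapped. Against old wild type the level was 0.130 of that in wild type by the fit (log2 fold change -2.94, SE 0.26, 95% interval -3.53 to -2.36, limma adjusted p = 0.00364). The fall was called in all 9 fits that left out 1 library, with log2 fold changes of -3.25 to -2.64. The first of these is the value without P311-/- replicate 1. Against young wild type the log2 fold change was -2.91, and -3.21 without that library. By p-value Nrep ranked 3 among all genes tested. For age in wild type the value was 0.034 (95% interval -0.55 to 0.62, adjusted p = 0.949), which was -0.10 with scaling by total reads.

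The 3 knockout libraries did not lose Nrep to the same extent. They held 19.6%, 8.42% and 12.8% of the old wild-type mean, from 1062, 286 and 738 reads, and replicate 1, the library that stood apart, held the most. The residual level still placed Nrep above 90.8% to 95.6% of all genes in the table. That table lists 54532 genes, of which only 20253 to 23430 had a read in these 3 libraries. The table counts reads per gene, so it does not say over which exons these reads lay. The deposited length of Nrep was 2513 bases, whereas the exons of its 4 transcripts in GENCODE M21 cover 3908 bases, and its FPKM relative to other genes depends on that length. For the other 7 genes both lengths were equal. No other gene of the table overlapped Nrep.

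**Figure D1:**
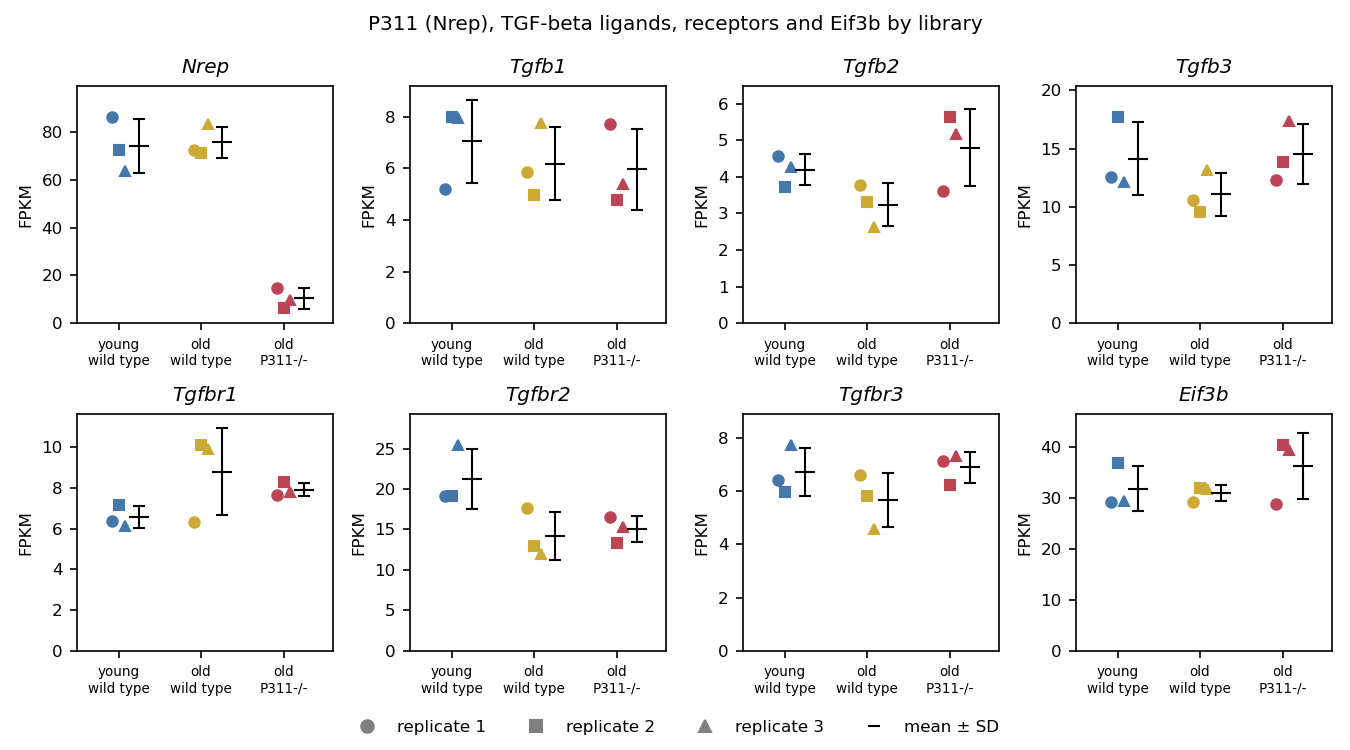
FPKM (vertical axes, from 0) of the 8 genes in the 9 libraries, by group, with 1 symbol for each replicate and the mean ± SD (n = 3) beside them. Nrep is low in all 3 old P311-/- libraries, from 6.37 to 14.8 FPKM, and Tgfb2 and Eif3b are higher in P311-/- replicates 2 and 3 than in every wild-type library.

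Among the ligands, Tgfb3 (ENSMUSG00000021253, chromosome 12, 86056745 to 86079041) had the highest transcript level per length in each of the 9 libraries. In young wild type it stood at 14.1 ± 3.13 FPKM (SD, n = 3), Tgfb1 (ENSMUSG00000002603, chromosome 7, 25687002 to 25705077) at 7.05 ± 1.61 FPKM (SD, n = 3) and Tgfb2 (ENSMUSG00000039239, chromosome 1, 186622792 to 186705989) at 4.19 ± 0.423 FPKM (SD, n = 3). Tgfb3 made up 49.7% to 62.2% of the summed ligand FPKM over the 9 libraries. The order Tgfb3, Tgfb1, Tgfb2 held in 8 libraries. In P311-/- replicate 2 Tgfb2 exceeded Tgfb1, with a ratio of 1.18 between them.

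Tgfb1, the ligand best known from inflammation and fibrosis, did not separate the groups. It stood at 5.20, 7.997 and 7.97 FPKM in young wild-type replicates 1, 2 and 3. Old wild type held 5.86, 4.96 and 7.75 FPKM, and old P311-/- 7.73, 4.77 and 5.39 FPKM. The 3 groups overlapped in range, and each held 1 library that lay apart from the other 2. P311-/- against old wild type gave a log2 fold change of -0.059 (95% interval -0.60 to 0.48, limma adjusted p = 0.919), so the interval spans 0.660-fold to 1.40-fold. It was -0.26 without P311-/- replicate 1 (adjusted p = 0.488). Old against young wild type gave -0.18 (95% interval -0.72 to 0.36, adjusted p = 0.665). P311-/- against young wild type gave -0.24 (adjusted p = 0.581), and -0.45 to -0.099 in fits that left out 1 library (adjusted p at least 0.213).

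Tgfb2, the ligand that depends most on betaglycan, stood at 4.56, 3.73 and 4.28 FPKM in the young wild-type replicates. Old wild type held 3.78, 3.32 and 2.62 FPKM. Old P311-/- held 3.61, 5.64 and 5.16 FPKM. P311-/- replicates 2 and 3 were above all 6 wild-type libraries, and replicate 1 lay within the old wild-type range. The P311-/- mean of 4.804 ± 1.06 FPKM (SD, n = 3) compared with 3.24 ± 0.587 FPKM (SD, n = 3) in old wild type, a log2 fold change of 0.54 (SE 0.20, 95% interval 0.11 to 0.98). With limma it did not pass over all genes (unadjusted p = 0.0200, adjusted p = 0.266). Without P311-/- replicate 1 the log2 fold change was 0.73 and passed (adjusted p = 0.0277), in a fit where 1875 genes passed in place of 10. It also passed when libraries were weighted by their quality (0.67, adjusted p = 0.0221), in a fit where 2720 genes passed, 19.1% of those tested. P311-/- replicate 1 had the lowest weight there, 0.270, so the 2 fits are not separate support. Of the 9 fits that left out 1 library, 1 called Tgfb2, and adjusted p reached up to 0.732. Old against young wild type gave -0.37 (adjusted p = 0.255) and P311-/- against young wild type 0.17 (adjusted p = 0.632), or 0.36 without P311-/- replicate 1 (adjusted p = 0.173).

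Tgfb3, the third isoform of the ligand, followed the same order of group means. Its values were 12.5, 17.7 and 12.1 FPKM in young wild type, 10.5, 9.53 and 13.1 FPKM in old wild type and 12.3, 13.9 and 17.4 FPKM in old P311-/-. The groups overlapped in every comparison. P311-/- against old wild type gave a log2 fold change of 0.39 (95% interval -0.046 to 0.82, limma adjusted p = 0.348) and old against young wild type -0.34 (95% interval -0.77 to 0.095, adjusted p = 0.294). The P311-/- mean of 14.5 FPKM and the young wild-type mean of 14.1 FPKM differed by 0.049 on the log2 scale with the authors' scaling and by -0.10 with scaling by total reads. The log2 fold change without P311-/- replicate 1 was 0.50 against old wild type (adjusted p = 0.132) and 0.16 against young wild type (adjusted p = 0.618).

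Summed over the 3 genes, ligand transcripts stood at 25.4 ± 3.68 FPKM in young wild type, 20.5 ± 2.86 FPKM in old wild type and 25.3 ± 2.31 FPKM in old P311-/- (SD, n = 3 each). The lowest P311-/- sum was 23.7 FPKM and the highest old wild-type sum 23.5 FPKM, so these ranges met without overlap, while young wild type, at 22.3 to 29.4 FPKM, overlapped both. P311-/- replicate 1 held the lowest sum of its group, and the other 2 held 24.3 and 27.9 FPKM. The share of Tgfb1 in the sum was 32.6%, 19.6% and 19.3% in P311-/- replicates 1, 2 and 3. It was 23.3% to 32.7% in young and 27.8% to 33.0% in old wild type. Replicates 2 and 3 were below every wild-type library in this share, and replicate 1 was not. These sums and shares are descriptions, and no test was made over the members.

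**Figure D2:**
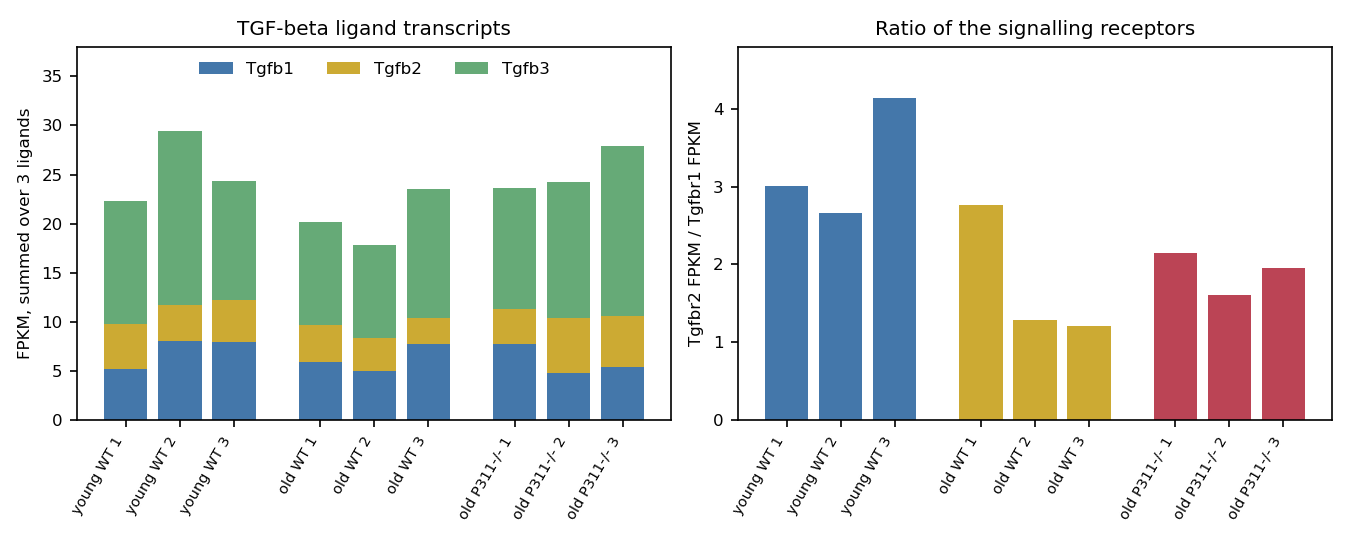
Left, stacked FPKM of Tgfb1, Tgfb2 and Tgfb3 in each library. Right, the ratio of Tgfbr2 to Tgfbr1 FPKM in each library, which spans 2.66 to 4.14 among young wild-type libraries, 1.20 to 2.77 among old wild-type ones and 1.60 to 2.15 among P311-/- ones.

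Of the receptors, Tgfbr2 (ENSMUSG00000032440, chromosome 9, 116084293 to 116175360), which binds ligand first, had the highest transcript level per length in every library. It stood at 19.1, 19.1 and 25.5 FPKM in young wild-type replicates 1, 2 and 3. Old wild type held 17.6, 13.0 and 12.0 FPKM. Old P311-/- held 16.5, 13.3 and 15.3 FPKM. Each young library was above each of the 6 old libraries of either genotype, and the old groups overlapped, with a log2 fold change of 0.097 between them (adjusted p = 0.807). Old against young wild type gave a log2 fold change of -0.59 (SE 0.18, 95% interval -0.99 to -0.19). With limma it did not pass over all genes (unadjusted p = 0.00857, adjusted p = 0.0793). P311-/- against young wild type gave -0.49 (adjusted p = 0.169), a comparison in which age and genotype differ together and which shares its young libraries with the first. With libraries weighted by their quality both passed, at -0.62 (adjusted p = 0.0297) and -0.50 (adjusted p = 0.0476), in fits where 16.1% and 22.3% of all genes passed. Some other settings raised the adjusted p of the difference between old and young wild type, which stayed below 0. The log2 fold change was -0.59 with the replicate number as a block (adjusted p = 0.117) and -0.48 with the length trend removed (adjusted p = 0.141). Without P311-/- replicate 1, P311-/- gave -0.56 against young wild type (adjusted p = 0.0720) and 0.027 against old wild type (adjusted p = 0.940).

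Tgfbr1 (ENSMUSG00000007613, chromosome 4, 47353222 to 47414931), which carries the signal to the SMAD proteins, had the opposite order of means. It stood at 6.36, 7.18 and 6.15 FPKM in young wild type, at 6.36, 10.1 and 9.93 FPKM in old wild type and at 7.68, 8.30 and 7.81 FPKM in old P311-/-. Old wild-type replicate 1 lay within the young range and the other 2 old wild-type libraries were above every other library. Old against young wild type gave a log2 fold change of 0.39 (SE 0.18, limma adjusted p = 0.191). All 3 P311-/- libraries were above the young ones, with a log2 fold change of 0.27 (adjusted p = 0.388), or 0.29 without P311-/- replicate 1 (adjusted p = 0.325). Old wild-type replicate 1 was also the old wild-type library with the highest Tgfbr2. Without it, Tgfbr1 passed between old and young wild type (log2 fold change 0.61, adjusted p = 0.0413), and so did Tgfbr2 (-0.75, adjusted p = 0.0483). That library is named here by the values of these same genes, so these calls are no separate support. Each gene was called in 1 of the 9 fits that left out 1 library. Adjusted p reached up to 0.459 for Tgfbr1 and 0.235 for Tgfbr2. The ratio of Tgfbr2 to Tgfbr1 was 3.01, 2.66 and 4.14 in the young replicates, 2.77, 1.28 and 1.20 in the old wild-type replicates and 2.15, 1.60 and 1.96 in the P311-/- replicates.

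Tgfbr3 (ENSMUSG00000029287, chromosome 5, 107106570 to 107289629), the betaglycan gene, stood at 6.42, 5.98 and 7.74 FPKM in young wild type, at 6.59, 5.80 and 4.57 FPKM in old wild type and at 7.14, 6.21 and 7.31 FPKM in old P311-/-. The groups overlapped in all 3 comparisons. The log2 fold changes were -0.25 for old against young wild type (limma adjusted p = 0.349), 0.29 for P311-/- against old wild type (95% interval -0.068 to 0.65, adjusted p = 0.384) and 0.041 for P311-/- against young wild type (adjusted p = 0.905). The last was -0.10 with scaling by total reads. With P311-/- replicate 1 left out, P311-/- gave 0.27 against old wild type (adjusted p = 0.351) and 0.014 against young wild type (adjusted p = 0.965).

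Eif3b (ENSMUSG00000056076, chromosome 5, 140419328 to 140443360), the translation factor subunit that P311 binds, was the most abundant of these transcripts after Nrep in wild type. It stood at 29.2, 36.8 and 29.4 FPKM in young wild type and at 29.1, 31.9 and 31.8 FPKM in old wild type. The P311-/- libraries held 28.8, 40.4 and 39.4 FPKM. Replicates 2 and 3 were above all wild-type libraries and replicate 1 was below all of them. The log2 fold change against old wild type was 0.21 (SE 0.16, 95% interval -0.14 to 0.57, limma adjusted p = 0.516), and 0.37 without P311-/- replicate 1 (adjusted p = 0.0870). Old against young wild type gave -0.032 (95% interval -0.39 to 0.32, adjusted p = 0.917). P311-/- against young wild type gave 0.18 (adjusted p = 0.531), and 0.092 to 0.34 in fits that left out 1 library (adjusted p at least 0.0964).

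In young wild type the order of mean FPKM was Nrep, Eif3b, Tgfbr2, Tgfb3, Tgfb1, Tgfbr3, Tgfbr1, Tgfb2. The ranges of Tgfb1 and Tgfbr3 overlapped, as did those of Tgfbr3 and Tgfbr1, and the other neighbours were apart. In old wild type Tgfbr1 moved ahead of Tgfb1, and all neighbours from Tgfbr2 down to Tgfbr3 overlapped. In old P311-/- Nrep came after Eif3b, Tgfbr2 and Tgfb3, and its range overlapped those of Tgfb3 and Tgfbr1.

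Counted over the group, old against young wild type had 0 of 8 members called by limma, beside 5.40% of all tested genes. At an unadjusted p under 0.05 there was 1 member (Tgfbr2), beside 26.3% of all genes. Voom on recovered reads, a limma fit that weights values by read count, also called 0. The ranges were apart for 1 member (Tgfbr2), beside 37.1% of all genes. P311-/- against old wild type had 1 member called (Nrep, lower), beside 0.0703% of all genes called and 0.0562% called lower. The same member was the only 1 without overlap, beside 18.0% of all genes, 8.64% higher and 9.39% lower. Without P311-/- replicate 1, 2 members were called, Nrep and Tgfb2, beside 13.2% of all genes in that fit. P311-/- against young wild type had 1 member called (Nrep, lower), beside 0.400% of all genes called and 0.246% called lower, and 3 without overlap (Nrep, Tgfbr1 and Tgfbr2), beside 23.5%. Apart from Nrep, these shares were near or below those of all genes.

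**Figure D3:**
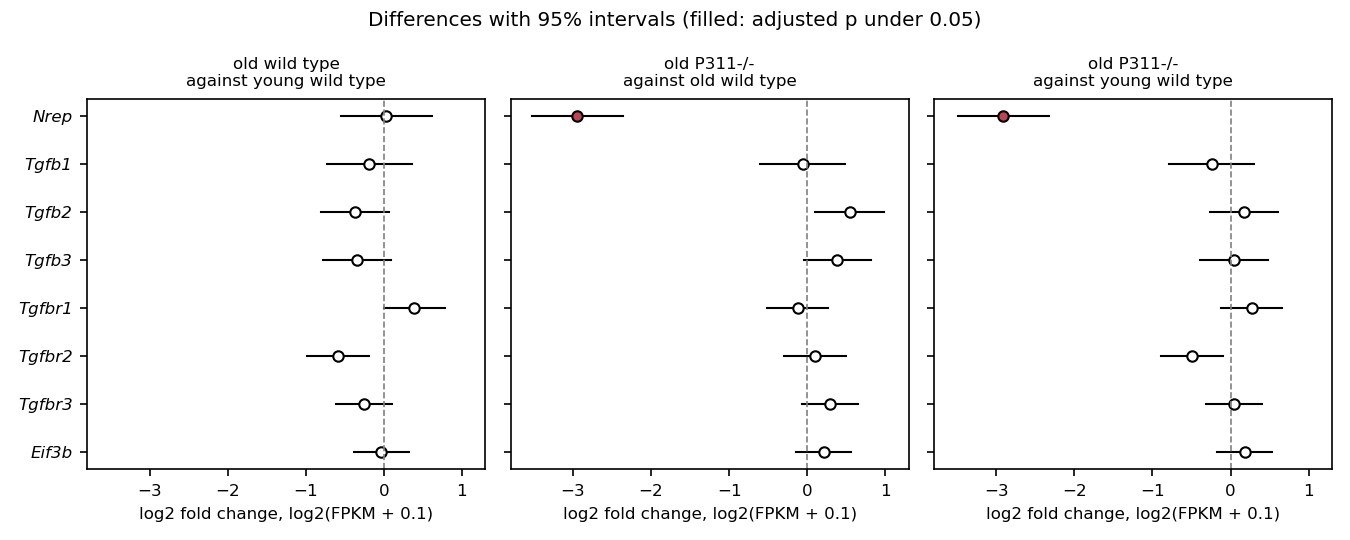
Log2 fold change (horizontal axis, from log2 values with 0.1 FPKM added) of the 8 genes in each comparison, with its 95% interval from limma. The filled points are those with an adjusted p under 0.05, which is Nrep in both comparisons with P311-/-, at -2.94 and -2.91.

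P311-/- replicate 1 differed from replicates 2 and 3 in some of these genes and over all genes. It lay within the range of the old wild-type libraries for 5 of the 8 genes, and replicates 2 and 3 for 3 each. Within the range of all wild-type libraries the counts were 6, 4 and 5 for replicates 1, 2 and 3. Replicate 1 had the highest Nrep and Tgfb1 of its group and the lowest Tgfb2, Tgfb3 and Eif3b. For Tgfbr1 and Tgfbr2 every P311-/- library lay within the old wild-type range. Tgfbr3 of replicate 1 lay between the values of replicates 2 and 3. Some lists of cell type markers also set replicate 1 apart, and others, such as those of pericytes and tenocytes, did not. Summed FPKM of 10 macrophage and monocyte markers was 1580 in replicate 1, 674 in replicate 2 and 924 in replicate 3, against 1196 to 1736 in old wild type. Summed FPKM of 6 Schwann cell and neuron markers was 6.89, 13.1 and 10.95, against 3.94 to 5.73. In whole muscle, fewer cells of a type and less RNA per cell cannot be told apart. The part of these differences in the values of Tgfb1, Tgfb2, Tgfb3 and Eif3b was not tested.

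The rest of the pathway was read from 6 lists of 81 genes, of which 76 were tested. In the aged wild type, against young, 8 of the 76 were called, 2 higher and 6 lower, beside 3.39% and 2.01% of all tested genes. These shares also stand beside the counts of each list below. P311-/- against old wild type called 0 by limma and 0 by voom on recovered reads, beside 0.0141% of all genes called higher and 0.0562% called lower, with 13 of 76 at an unadjusted p under 0.05 (6 higher, 7 lower), beside 16.1% of all genes, which is about the same share. Without P311-/- replicate 1 it called 15, 6 higher and 9 lower, beside 13.2% of all genes in that fit, and with quality weights 18, beside 19.1%. P311-/- against young wild type called 1, which was lower, beside 0.400% of all genes. It called 29 without P311-/- replicate 1, 8 higher and 21 lower, beside 19.6% of all genes in that fit, and with quality weights 27, beside 22.3%.

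Latent TGF-beta is held by LTBP proteins and freed by integrins and proteases. Of 16 tested genes of this step, 0 rose and 2 fell in old against young wild type, and 14 had a log2 fold change below 0 (median -0.42, beside 0.0050 over all genes). The protease gene Bmp1 fell to 8.57 ± 1.51 from 14.5 ± 1.27 FPKM (SD, n = 3; log2 fold change -0.76, adjusted p = 0.0337) and the integrin gene Itgb3 to 0.807 ± 0.123 from 1.51 ± 0.2004 FPKM (SD, n = 3; -0.83, adjusted p = 0.0486). In P311-/- against old wild type none passed over 9 libraries, with a median of 0.087. The median turned to -0.025 without P311-/- replicate 1 and to -0.031 without old wild-type replicate 2. In the fit without P311-/- replicate 1, 3 were called higher and 2 lower, beside 13.2% of all genes called. The latent-binding genes Ltbp4 and Ltbp3 had the smallest p, at 26.7 ± 4.25 against 17.0 ± 1.05 FPKM (SD, n = 3; log2 fold change 0.64, limma adjusted p = 0.237) and 22.8 ± 2.47 against 15.9 ± 1.96 FPKM (SD, n = 3; 0.52, adjusted p = 0.243). Both passed without P311-/- replicate 1 (adjusted p = 0.0304 and 0.0415). Neither passed in any other of the 9 fits that left out 1 library (adjusted p up to 0.732).

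Among 5 tested genes of other receptors, coreceptors and decoys, Vasn, which encodes the TGF-beta-binding protein vasorin, fell from 7.46 ± 0.397 in young to 4.55 ± 0.471 FPKM in old wild type (SD, n = 3; log2 fold change -0.71, limma adjusted p = 0.0308). It stood at 4.66 ± 0.577 FPKM (SD, n = 3) in P311-/- (adjusted p = 0.0611 against young, or 0.0102 without P311-/- replicate 1). That fit called 19.6% of all genes, and Vasn passed against young in no other fit that left out 1 library. The endothelial receptor gene Acvrl1 had -0.35 between old and young wild type (adjusted p = 0.204). Cd109, a coreceptor gene, had -0.83 in P311-/- against old wild type (adjusted p = 0.289). Of 18 SMAD genes and regulators, only Ski, a repressor of SMAD signalling, passed in old against young wild type (-0.47, adjusted p = 0.0429), and the list's median was -0.014. Strap, a partner of the inhibitory SMAD7, had 0.45 (adjusted p = 0.0701). In P311-/- against old wild type the ubiquitin ligase gene Smurf1 had 0.37 (adjusted p = 0.279) and the inhibitory SMAD gene Smad7 had 0.52 (adjusted p = 0.309). Smad7 passed without P311-/- replicate 1 (adjusted p = 0.0394), where 13.2% of all genes passed. It passed in no other fit that left out 1 library (adjusted p up to 0.750).

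Target genes of TGF-beta were lower in old muscle of both genotypes than in young muscle by their medians. Of 21 tested, 1 fell in old against young wild type, Col1a1, a chain of type I collagen (198 ± 26.8 against 408 ± 42.8 FPKM, SD, n = 3; log2 fold change -1.04, limma adjusted p = 0.0436). The list's median was -0.59, beside 0.0050 over all genes, and 20 of 21 values were below 0. In P311-/- against young wild type 1 fell, Sparc, a matrix protein gene (228 ± 69.9 against 514 ± 13.2 FPKM, SD, n = 3; -1.21, adjusted p = 0.0499). The list's median there was -0.65, beside 0.014 over all genes, of which 0.246% were called lower. In P311-/- against old wild type none passed, and 3 of 21 had an unadjusted p under 0.05, beside 16.1% of all genes. The median of -0.22 rested on single libraries, at -0.44 without P311-/- replicate 1, -0.46 without old wild-type replicate 2 and 0.031 without P311-/- replicate 2. The collagen-degrading protease gene Fap had -0.59 (adjusted p = 0.285) and the protease inhibitor gene Timp1 -0.59 (adjusted p = 0.305). Both passed without P311-/- replicate 1 (adjusted p = 0.00911 and 0.0447), where 13.2% of all genes passed. Neither passed in another fit that left out 1 library (adjusted p up to 0.736 and 0.743). Summed FPKM of 10 fibroblast markers spanned 720 to 771 for young wild type, 518 to 762 for old wild type and 450.5 to 639 for P311-/-, and its part in these values was not tested.

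Among 7 tested matrix proteins that bind TGF-beta, Fbn1, which encodes fibrillin and anchors latent complexes, fell from 42.3 ± 3.58 to 22.4 ± 6.71 FPKM between young and old wild type (SD, n = 3; log2 fold change -0.95, limma adjusted p = 0.0380). It stood at 21.7 ± 3.63 FPKM (SD, n = 3) in P311-/-. The proteoglycan gene Bgn had -0.69 (adjusted p = 0.0805). In P311-/- against old wild type Igfbp3 had 0.43 (adjusted p = 0.258) and Aspn, a TGF-beta-binding proteoglycan gene, had -1.02 (adjusted p = 0.266). Aspn passed without P311-/- replicate 1 (adjusted p = 0.00971), where 13.2% of all genes passed. It passed in no other fit that left out 1 library (adjusted p up to 0.732).

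The lists end with the other subunits of eIF3, the complex that holds the product of Eif3b. Of 13 tested, 2 rose and 0 fell in old against young wild type, and 12 had a log2 fold change above 0 (median 0.27, beside 0.0050 over all genes). Eif3e rose from 18.0 ± 1.05 to 30.4 ± 2.15 FPKM (SD, n = 3; 0.75, limma adjusted p = 0.0290) and Eif3m from 34.2 ± 4.85 to 53.8 ± 4.79 FPKM (SD, n = 3; 0.66, adjusted p = 0.0464). Eif3b itself, at -0.032, was not among them. In P311-/- against old wild type the median was -0.0086 (0.068 without P311-/- replicate 1) and none passed over 9 libraries. Eif3m had -0.50 (adjusted p = 0.254) and Eif3e had -0.26 (adjusted p = 0.3002). Eif3m passed without P311-/- replicate 1 (adjusted p = 0.0428), where 13.2% of all genes passed. It passed in no other fit that left out 1 library (adjusted p up to 0.732).

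The 8 calls of pathway genes between old and young wild type depended on the libraries used. None of the 8 was called without young replicate 1, 2 or 3 or without old wild-type replicate 2 or 3, and adjusted p then reached up to 0.161. Counted anew over the 76 genes, calls numbered 0 with no filter on low values, 0 with the replicate number as a block, 2 with the length trend removed and 5 with scaling by total reads. They numbered 15 with voom, 20 with the 6 libraries of the comparison and 22 with quality weights. Without P311-/- replicate 1, 2 or 3 they numbered 20, 14 and 3, and without old wild-type replicate 1 they numbered 6. The call of Sparc was lost without any 1 library other than P311-/- replicate 1 (adjusted p up to 0.186).

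**Figure D4:**
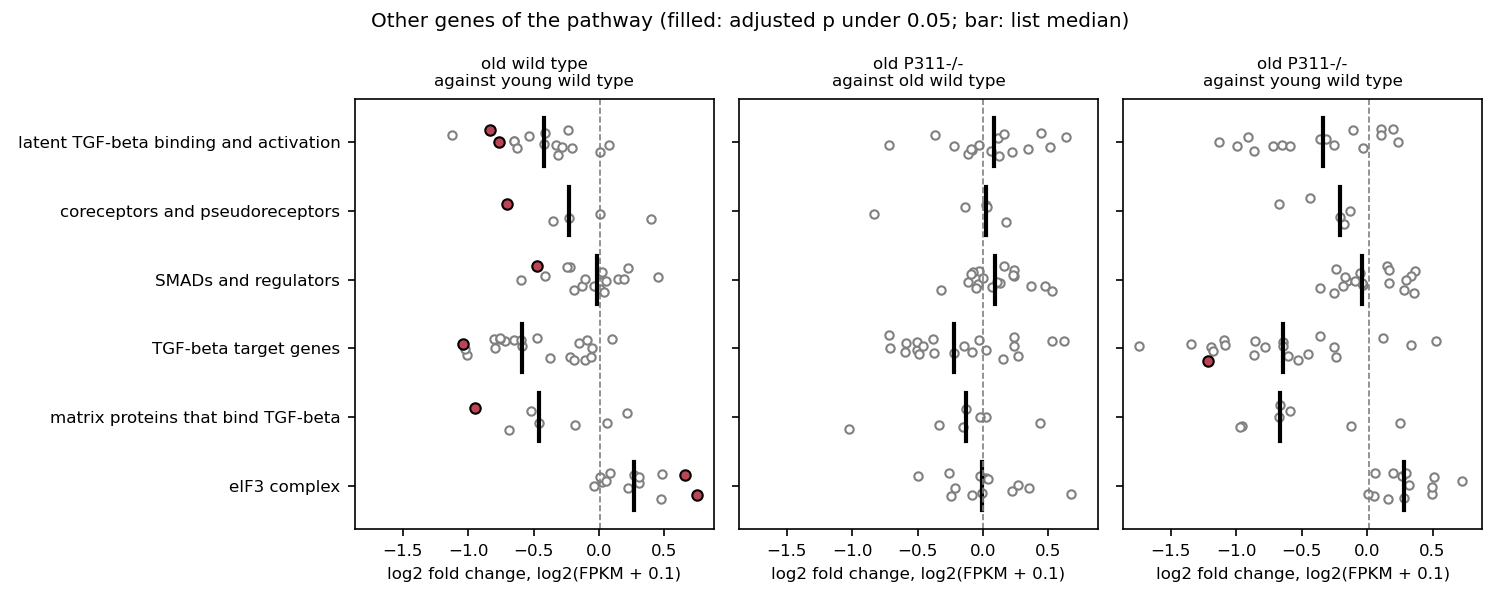
Log2 fold change (horizontal axis) of each tested gene of the 6 lists, with the median of the list as a bar and the median of all tested genes as a dashed line. Filled points have an adjusted p under 0.05, 8 different genes in the first comparison, 0 in the second and 1 in the third.

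Genes with the pattern most like a member were sought among 11946 other genes of at least 1 FPKM on average, by the root-mean-square difference of log2 values centred on each gene's mean over the 9 libraries. Nearest to Nrep were Gm15948 (0.51), Gm15446 (0.66) and the natural killer cell receptor gene Klra8 (0.74). The last stood at 1.99, 2.86 and 0.256 FPKM in young wild type, old wild type and P311-/- on average. The distances to Nrep were larger than those to the other members. Among the genes near Tgfb2 were Chd6 (0.091) and Rbm33 (0.094). Chd6 stood at 1.82, 1.43 and 2.11 FPKM in the same order of groups. Nearest to Tgfb3 was Sgsh (0.086), to Tgfb1 Lgals3, which encodes galectin-3 (0.11), and to Tgfbr3 Sfi1 (0.11). Nearest to Tgfbr1 was Rnf217 (0.065) and to Tgfbr2 Pip4k2a (0.075), followed by the metalloproteinase inhibitor gene Timp2 (0.081). Timp2 stood at 125, 81.3 and 87.9 FPKM in young wild type, old wild type and P311-/- on average. These distances describe the 9 libraries and carry no test.

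Some members overlap other annotated genes. Among all genes listed, 10 overlapped 4 of the members (Tgfb2, Tgfb3, Tgfbr3 and Eif3b). Ttll5, on the strand opposite to Tgfb3, reached 0.618 FPKM and 263 reads and shares no exon base with it, and the other 9 had at most 19 reads in any library. Gm29491 shares 124 exon bases with Tgfb2, Gm37804 and Gm48008 share 163 and 257 with Tgfb3, and Gm43422 shares 297 with Tgfbr3. How reads over shared bases were counted is not given, and the part of overlaps in the members' values was not tested.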

How the data were processed

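RNA from 9 libraries was sequenced after selection of polyadenylated RNA. HISAT2 2.2.1, featureCounts 2.1.1, DESeq2 1.42.0 and build mm39 are named in the submitters' processing notes, without options or use of strand. Gene positions in the deposited table were identical to GENCODE M21 (GRCm38) for 53499 of 54409 shared genes (98.3%), so GRCm38 is used here. The deposited values are FPKM, per the values and gene lengths of the table; the authors' library sizes were proportional to median-of-ratios size factors. Multiplying FPKM by gene length and a factor found for each library returned whole reads, within 0.001, for 100% of values above 0. Tests used limma 3.58.1 in R 4.3.3, with trend and robust moderation, on log2 of FPKM plus 0.1, with all 9 libraries in 1 fit. Genes needed at least 0.5 FPKM and at least 10 recovered reads, each in at least 3 libraries. Calls had a Benjamini-Hochberg adjusted p under 0.05 over all 14233 tested genes. Fold changes are on that scale and understate the change of low genes. Members, lists and tests were chosen with earlier results of these data known.

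The rule for named genes took the 8 members, up to 6 called genes of each list in each comparison or the 2 of smallest p where fewer than 2 were called, and the 3 genes most like a member; some are given only as counts, and 1 is not reported here. Ccn2 was found as Ctgf. Marker lists covered muscle fibres, embryonic fibres, satellite cells, fibroblasts, macrophages, neutrophils, T and natural killer cells, endothelium, pericytes, tenocytes, Schwann cells, adipocytes and platelets. The labels number replicates 1 to 3 in each group. Correlations of same-numbered libraries' deviations from their group means ran from -0.101 to 0.145, and those of differently numbered libraries from -0.159 to 0.214. No pairing by number was seen in them, but 3 libraries a group cannot exclude one. The test was run on simulated data with the same spread of a gene in every library. No simulated library stood apart from its group, so that feature of these data was not covered. Alternatives covered the pseudocount, filter, scaling, weights, block, gene length, voom, the libraries fitted and leaving out each library.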

Additional observations from a re-analysis of the deposited data

How the results depend on the processing

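The fall of Nrep in P311-/- kept its direction and passed in all 18 alternatives, against old and against young wild type. The number of members called was 1 in old against young wild type with library quality weights and 0 to 2 without 1 library. It was 2 with weights in both P311-/- comparisons, and 1 to 2 without 1 library against old wild type. Over all genes, old against young wild type gave 768 calls, 62.8% of them higher, and 346 with total-count scaling, 27.7% higher, which shifted the median of all genes by -0.13. It gave 5 with no filter, 2290 with weights, 412 with the length trend removed, 1653 in a fit of 6 libraries and 0 with the replicate block (3386 at an unadjusted p under 0.05), and 0 to 1755 without 1 library, with 0 without young replicate 3 or without old wild-type replicate 2 (2741 and 2737 at an unadjusted p under 0.05). P311-/- against old wild type gave 10 calls, 2720 with weights, 4 with the replicate block, 6 in a fit of 6 libraries and 4 to 1875 without 1 library, the last without P311-/- replicate 1. P311-/- against young wild type gave 57, and 87 with a pseudocount of 1, 23 with no filter, 34 with total-count scaling (median shift -0.14), 139 with voom, 3173 with weights, 5 with the replicate block, 33 with the length trend removed, 12 in a fit of 6 libraries and 4 to 2785 without 1 library. No pairing by replicate number was seen, which 3 libraries a group cannot exclude, and the block ended no call of a member. Weights gave P311-/- replicates 1, 2 and 3 values of 0.270, 0.687 and 2.54.

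Signs turned for differences near 0, none of them called. For old against young wild type, Nrep was -0.10 with total-count scaling, -0.029 with the length trend removed and -0.069 to 0.15 without 1 library, and Eif3b was -0.089 to 0.077 without 1 library. For P311-/- against old wild type, Tgfb1 was -0.26 to 0.11 and Tgfbr2 -0.015 to 0.26 without 1 library. For P311-/- against young wild type, Tgfb3 and Tgfbr3 were -0.10 and -0.10 with total-count scaling and -0.087 to 0.22 and -0.036 to 0.15 without 1 library. The cause of these changes was not tested. Every member had at least 286 reads in every library.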

Other observations

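Cell type markers gave further values for the groups. Summed FPKM of 10 muscle fibre markers ranged from 46340 to 50320 for young wild type, from 52950 to 64420 for old wild type and from 52650 to 65330 for P311-/-, with 1 marker lower in old against young wild type. For 5 embryonic fibre markers it was 686 to 925, 601 to 1067 and 236 to 961, most of it from the actin gene Actc1, at 189 to 850 FPKM in P311-/-. Of these 5 markers, 2 had a log2 fold change above 0 and 3 below 0 in P311-/- against old wild type. For 8 satellite cell and myoblast markers, most of it from the intermediate filament gene Des, the sum was 845 to 1149, 957 to 980 and 1079 to 1553. The 10 macrophage and monocyte markers summed to 1455 to 2261 in young wild type. Fibroblast markers had 2 of 10 called lower in old against young wild type, and muscle fibre markers 1 of 10, beside 2.01% of all tested genes. Apart from these 3 calls, limma called no marker in any comparison. In the same order of groups, the sums were 55.2 to 62.5, 53.4 to 74.5 and 52.1 to 66.9 for 8 endothelial markers and 100.8 to 131, 104 to 139 and 116 to 118 for 8 pericyte and smooth muscle markers. They were 105 to 146, 86.9 to 94.3 and 67.0 to 98.9 for 5 tenocyte markers and 45.5 to 74.2, 66.8 to 78.3 and 41.4 to 101.3 for 5 adipocyte markers. For 6 Schwann cell markers they were 3.33 to 7.33 in young wild type. Rarer cell types gave 7.98 to 17.8, 9.72 to 29.8 and 8.72 to 18.6 for 5 neutrophil markers, 7.44 to 11.5, 9.33 to 12.3 and 4.598 to 17.0 for 8 T and natural killer cell markers, and 38.1 to 59.8, 45.0 to 71.7 and 42.2 to 50.1 for 4 platelet markers. Single genes were the largest term of other sums too: Lyz2 for macrophages, Thbs4 for tenocytes, Rgs5 for pericytes, Fabp4 for adipocytes and Pf4 for platelets. The neutrophil marker Ly6g and the platelet marker Gp1bb were listed at 0 in all 9 libraries.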
